A study of Mus musculus with 9 samples.

Results

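The 10 genes described here carry or respond to short-range signals of the intestinal crypt. Their mRNA was followed across sorted epithelial cells of mice lacking FoxO1 in the Neurog3 lineage. They were chosen by name as 3 niche ligands (Wnt3, Egf and Tgfa), 5 genes known to respond to Wnt (Axin2, Sox9, Sox4, Ephb2 and Ephb3) and 2 ephrin-B ligands (Efnb1 and Efnb2), and they were 10 of the 35013 gene symbols listed. All 10 had a row in both deposited tables, and all 10 passed the filter on low values in both. The mRNA of 3 sorted populations was sequenced, with 3 biological replicates of each and 9 libraries in all. Every mouse was Neurog3Cre-FoxO1 f/f; Rosa26tdtomato (NFKO), aged 4 to 6 weeks, and small intestinal epithelial cells were sorted after staining for CD24 and EpCAM. Cre under the Neurog3 promoter turns on Tomato in cells that descend from Neurog3 progenitors, so that the Tomato+ cells are those in which FoxO1 is targeted, and Tomatoneg cells carry the same floxed allele without recombination of the reporter. One table held CD24negTomato+ and Tomatoneg libraries, and the other held CD24+Tomato+ and the same Tomatoneg libraries. No Tomato+ cells with intact FoxO1 were among these libraries, so lineage and deletion cannot be told apart in either comparison.

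At the crypt base, Paneth cells secrete Wnt and EGF family ligands that act on the neighbouring stem cells. Wnt ligands stabilize β-catenin, which with TCF/LEF factors turns on target genes, among them a negative-feedback component (Axin2), SOX factors and the EphB receptors. EphB receptors are abundant at the crypt base and their ephrin-B ligands towards the villus, and repulsion between cells bearing one or the other sorts Paneth cells, progenitors and differentiated cells into position.

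In CD24+Tomato+ cells, Wnt3, Sox9 and Sox4 rose against Tomatoneg cells, by 6.67-fold, 3.39-fold and 3.89-fold. Egf and Ephb3 were also above every Tomatoneg library without passing the test, although Ephb3 passed when replicates were paired by number, while Axin2 and Ephb2 overlapped with Tomatoneg. Both ephrins were below every Tomatoneg library, and they did not pass the test but did so with the same pairing. In CD24negTomato+ cells none of the 10 genes passed the test without pairing, where 0.999% of all tested genes rose and 0.32% fell. Ephb2 was lower there when replicates were paired. Wnt3, Axin2, Sox9 and Ephb2 lay below every Tomatoneg library and Egf above, where 10.6% and 14.7% of all tested genes did so.

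Promoter windows of 4 genes are printed to show what lies just upstream of them. Wnt3, Sox4 and Ephb3 had CD24+Tomato+ values above every Tomatoneg library, Ephb3 without passing the test unless replicates were paired. Axin2 is a Wnt target whose groups overlapped there. Windows run from 250 bases before to 50 bases after the start of transcription in RefSeq (GRCm38.p6), are written 5′ to 3′ on the strand of the gene, and were found for 9 of the 10 genes. Capitals mark matches to either of 2 motifs, searched on both strands: the TCF/LEF motif, spelled CTTTGAA or the variant CTTTGAT or the variant CTTTGTA or the variant CTTTGTT, and the E-box, spelled CAGCTG or the variant CAGATG. E-boxes are bound by basic helix-loop-helix factors. The windows are chr11:103773925-103774224 on the plus strand for Wnt3, chr11:108920099-108920398 on the plus strand for Axin2, chr13:28953650-28953949 on the minus strand for Sox4 and chr16:21204545-21204844 on the plus strand for Ephb3.
Wnt3: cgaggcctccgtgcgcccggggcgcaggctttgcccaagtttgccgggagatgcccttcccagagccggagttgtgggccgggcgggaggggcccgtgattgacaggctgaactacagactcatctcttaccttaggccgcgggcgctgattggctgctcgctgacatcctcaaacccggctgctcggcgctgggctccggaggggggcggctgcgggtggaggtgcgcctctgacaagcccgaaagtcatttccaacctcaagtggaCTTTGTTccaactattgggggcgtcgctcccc
Axin2: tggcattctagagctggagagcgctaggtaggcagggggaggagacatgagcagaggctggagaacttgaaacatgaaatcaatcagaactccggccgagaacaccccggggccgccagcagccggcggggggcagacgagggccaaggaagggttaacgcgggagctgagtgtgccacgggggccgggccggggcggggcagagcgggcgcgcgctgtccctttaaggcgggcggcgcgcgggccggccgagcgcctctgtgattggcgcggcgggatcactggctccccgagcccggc
Sox4: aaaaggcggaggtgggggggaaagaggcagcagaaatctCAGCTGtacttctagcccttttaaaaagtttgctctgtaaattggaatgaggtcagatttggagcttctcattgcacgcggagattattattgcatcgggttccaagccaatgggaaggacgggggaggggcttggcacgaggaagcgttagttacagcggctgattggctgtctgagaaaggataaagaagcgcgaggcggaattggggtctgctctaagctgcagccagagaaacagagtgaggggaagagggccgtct
Ephb3: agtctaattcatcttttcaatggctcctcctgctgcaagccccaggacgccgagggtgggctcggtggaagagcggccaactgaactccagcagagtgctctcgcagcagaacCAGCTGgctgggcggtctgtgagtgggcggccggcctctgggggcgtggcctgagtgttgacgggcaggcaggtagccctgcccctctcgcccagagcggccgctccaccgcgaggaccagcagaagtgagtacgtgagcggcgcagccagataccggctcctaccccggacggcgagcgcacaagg
The Wnt3 window held the TCF/LEF word CTTTGTT, which began at base 19 of the transcript, and no other of the 9 genes had a match to that motif. Of 32851 promoter windows of the same length, 16.9% held a TCF/LEF word. The E-box CAGCTG began 211 bases before the start of Sox4 and 137 bases before that of Ephb3, and 30.6% of all windows held one of the E-box words. No word was found in the Axin2 window, which says only that these letters are not within it. The Egf, Tgfa, Ephb2, Efnb1 and Efnb2 windows, not printed here, also held no word. Egf too was above every Tomatoneg library in CD24+Tomato+ cells, and Sox9, which rose there, had no window. Every window with a match is printed, so the choice shown cannot tell whether a motif goes with higher values.

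Depth was estimated from the most common low value of each library, taken as 1 read, and was 19143944 to 24351580 reads in Tomatoneg and 27894876 to 39296116 in Tomato+ libraries. Tomatoneg replicate 1 stood apart. Its Pearson r over log2 values was 0.82 to 0.86 with the other Tomatoneg libraries, which correlated at 0.92 and 0.93 with each other, and it had 13025 genes above 0 against 15644 and 16008. Replicate 1 of every population carried sequencing sample numbers apart from those of replicates 2 and 3, and each replicate number held 1 library of each population. Foxo1, the targeted gene, was 319, 193 and 201 in CD24+Tomato+ and 748, 529 and 444 in Tomatoneg replicates 1 to 3, without overlap (log2 fold change -1.27, limma adjusted P = 0.058, and 0.022 with the replicate number as a block). It was 467, 274 and 371 in CD24negTomato+ against 695, 518 and 424, which overlapped (limma adjusted P = 0.427). A value per gene counts every transcript of the gene, and reads from the deleted part were not separated.

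Wnt3 encodes the main Wnt ligand of Paneth cells (chromosome 11, 103774150 to 103817957, plus strand, GRCm38). Its normalized counts in CD24+Tomato+ replicates 1, 2 and 3 were 1078, 1422 and 1273, against 239, 162 and 167 in Tomatoneg. Every CD24+Tomato+ library lay far above every Tomatoneg library. The log2 fold change was 2.74 ± 0.29 (SE, limma adjusted P = 0.0032), and it was 2.17, 3.13 and 2.92 within replicate numbers 1, 2 and 3. In the other table, Wnt3 was 86.9, 145 and 105 in CD24negTomato+ against 222, 158 and 160 in Tomatoneg libraries. These groups did not overlap, with CD24negTomato+ the lower, but the log2 fold change of -0.69 ± 0.41 did not pass the test (limma adjusted P = 0.424). In bulk libraries, fewer cells of a type and less RNA per cell cannot be told apart, here or for any gene that follows.

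Egf, a ligand of the EGF receptor, had the lowest counts of the 10 genes (chromosome 3, 129677565 to 129755316, minus strand). It was 78.9, 113 and 98.1 in CD24+Tomato+ and 0, 19.1 and 21.9 in Tomatoneg libraries. The groups were well separated, but the value of 0 in Tomatoneg replicate 1, where 3 reads correspond to 4.29, gave the difference a wide error. The log2 fold change was 3.65 ± 1.26 (limma adjusted P = 0.106), and 2.17 without that library (limma adjusted P = 0.021). In the other table Egf was 23.9, 31.9 and 26.3 in CD24negTomato+ against 0, 15.5 and 17.4, again above every Tomatoneg library and again without passing the test (2.07 ± 1.28, limma adjusted P = 0.445). Values of Egf in Tomatoneg replicate 2 were 1.23 times higher in the CD24+Tomato+ table than in the other, where the median gene differed by 1.02 times, so its levels are not comparable between tables.

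Tgfa, another EGF receptor ligand, did not follow Egf or Wnt3 (chromosome 6, 86195223 to 86275719, plus strand). It was 496, 292 and 310 in CD24+Tomato+ against 856, 486 and 413 in Tomatoneg, and the groups overlapped. In CD24negTomato+ it was 780, 556 and 556 against 782, 467 and 387, and these also overlapped. Replicate 1 was the highest library of each population. The log2 fold changes of -0.64 ± 0.38 and 0.26 ± 0.34 did not pass the test (limma adjusted P = 0.328 and 0.738).

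**Figure D1:**
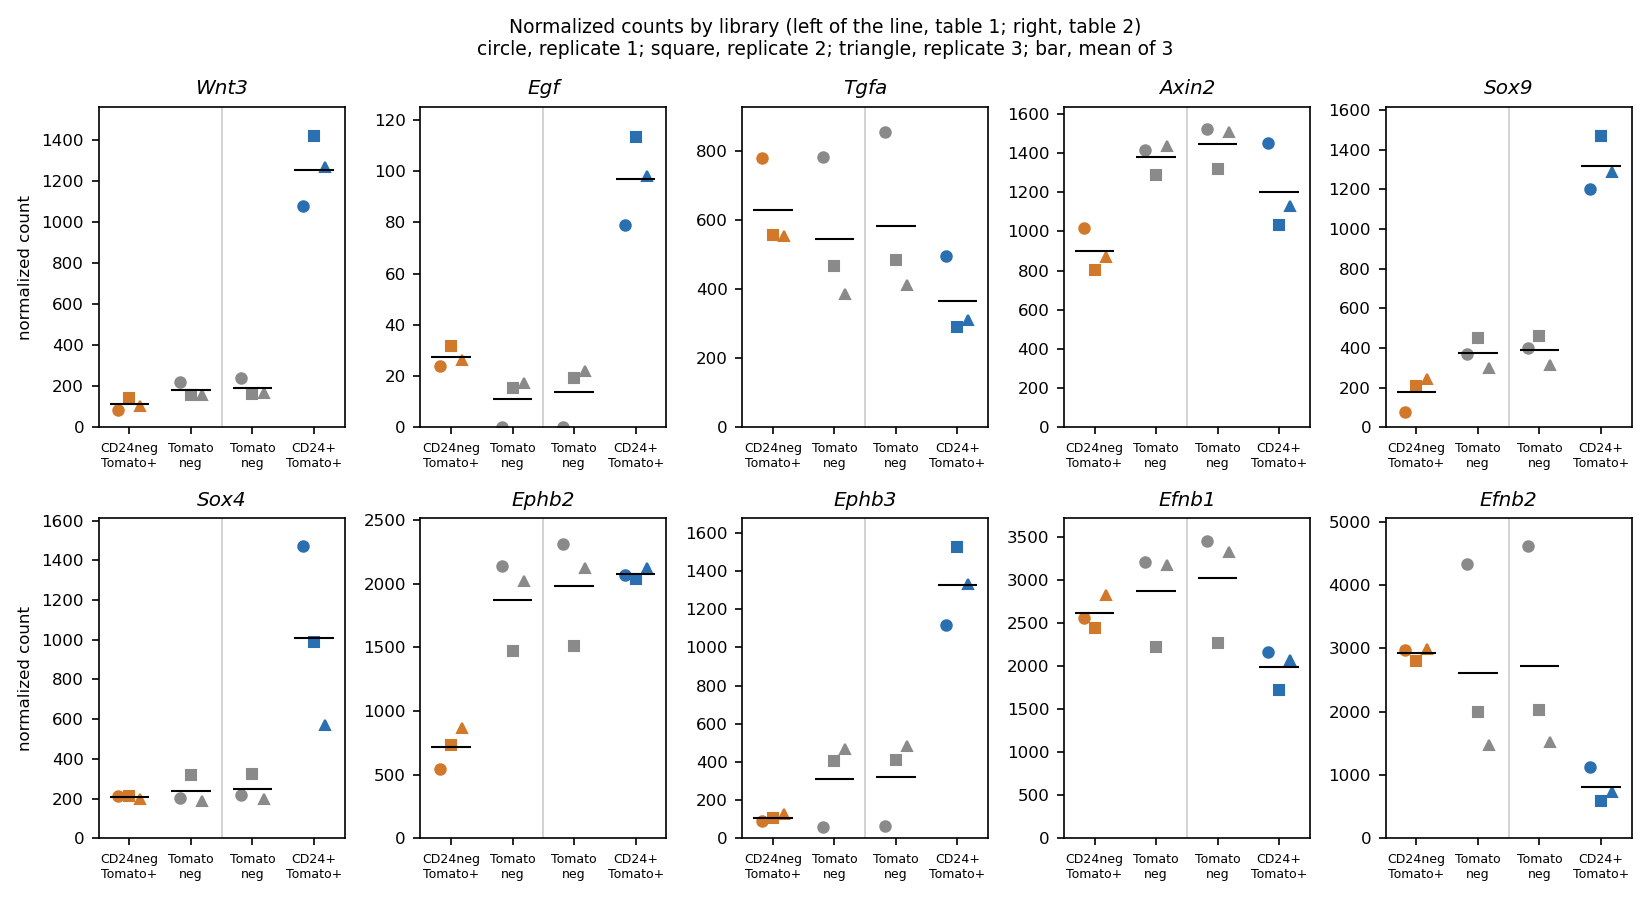
Normalized count (linear axis from 0) of each of the 10 genes in every library, by population and table, with symbols for replicate numbers and a bar at the mean of 3. CD24+Tomato+ libraries sit above all Tomatoneg libraries for Wnt3, Egf, Sox9, Sox4 and Ephb3 and below them for Efnb1 and Efnb2, and Tomatoneg replicate 1 lies apart from the others for Ephb3, Efnb2, Tgfa and Egf.

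Among the Wnt-responsive genes, Axin2 encodes a scaffold of the complex that degrades β-catenin (chromosome 11, 108920349 to 108950783, plus strand). It was 1450, 1032 and 1128 in CD24+Tomato+ against 1521, 1319 and 1505 in Tomatoneg libraries. The groups overlapped through replicate 1, and the log2 fold change was -0.28 ± 0.22 (95% interval -0.79 to 0.23, limma adjusted P = 0.457), an interval that does not reach a rise of the size seen for Wnt3. In CD24negTomato+ Axin2 was 1019, 804 and 870 against 1414, 1290 and 1436. All of these CD24negTomato+ libraries were below all Tomatoneg libraries, at 65.0% of their mean, and the log2 fold change of -0.63 ± 0.22 did not pass the test (limma adjusted P = 0.205).

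Sox9, a transcription factor needed for Paneth cell formation, went the way of Wnt3 (chromosome 11, 112782224 to 112787760, plus strand). It was 1200, 1469 and 1289 in CD24+Tomato+ against 400, 460 and 315 in Tomatoneg libraries, with no overlap. It rose by 1.76 ± 0.25 on the log2 scale (limma adjusted P = 0.0081), a call lost without CD24+Tomato+ replicate 2 (adjusted P = 0.0751) or replicate 3 (adjusted P = 0.0518). In CD24negTomato+ it was 76.5, 207 and 243 against 371, 450 and 300, below every Tomatoneg library, and the log2 fold change stood at -1.23 ± 0.50 (limma adjusted P = 0.266).

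Sox4, a SOXC factor of secretory progenitors, rose in CD24+Tomato+ (chromosome 13, 28948919 to 28953713, minus strand). Its values of 1472, 987 and 573 were spread more widely than those of Sox9, and all lay above the Tomatoneg values of 220, 326 and 196. On the log2 scale the rise was 1.96 ± 0.41 (limma adjusted P = 0.024). The call was lost without CD24+Tomato+ replicate 1 (adjusted P = 0.0886), CD24+Tomato+ replicate 2 (adjusted P = 0.128) or Tomatoneg replicate 3 (adjusted P = 0.0524), the fold change staying between 1.64 and 2.32 with any 1 library left out. CD24negTomato+ libraries had 214, 213 and 197 against 204, 318 and 187, which overlapped (-0.14 ± 0.36, limma adjusted P = 0.863). An antisense gene, Gm26735, shares 2616 bases with the exon of Sox4, and whether counting used the strand is not given in the sources used here. The same limit holds for Egf, Tgfa and Axin2. Antisense genes share up to 500 bases with exons of Egf, 118 with those of Tgfa and 105 with those of Axin2.

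Ephb2 and Ephb3, receptors that hold cells near the crypt base, differed from each other. Ephb2 (chromosome 4, 136647539 to 136835988, minus strand) was 2069, 2040 and 2125 in CD24+Tomato+ against 2308, 1508 and 2125 in Tomatoneg libraries. The CD24+Tomato+ values lay inside the Tomatoneg range, and the log2 fold change was 0.09 ± 0.22 (95% interval -0.43 to 0.61, limma adjusted P = 0.822). In CD24negTomato+, Ephb2 was 544, 737 and 866 against 2136, 1470 and 2019. These groups were clearly separated, with CD24negTomato+ at 38.2% of the Tomatoneg mean. The log2 fold change was -1.40 ± 0.28 and missed the threshold narrowly (limma adjusted P = 0.059), whereas with the replicate number as a block it passed (limma adjusted P = 0.029).

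Ephb3 (chromosome 16, 21204755 to 21223305, plus strand) was 1119, 1524 and 1331 in CD24+Tomato+ against 65.8, 412 and 486 in Tomatoneg libraries. All CD24+Tomato+ values were higher, and the low value of Tomatoneg replicate 1 set the size of the error. The log2 fold change was 2.47 ± 0.72 (limma adjusted P = 0.065), 2.47 with the replicate block (limma adjusted P = 0.016) and 1.55 without Tomatoneg replicate 1 (limma adjusted P = 0.0074). In CD24negTomato+ it was 91.7, 106 and 129 against 61.6, 406 and 467, so the groups overlapped only through that same library. There the log2 fold change was -1.07 ± 0.77 (limma adjusted P = 0.506), and without Tomatoneg replicate 1 it was -2.0 (limma adjusted P = 0.022).

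The ephrins, membrane-bound ligands of the EphB receptors, lay on the other side of Tomatoneg in CD24+Tomato+ cells. Efnb1 (chromosome X, 99136130 to 99148991, plus strand) was 2168, 1724 and 2066 in CD24+Tomato+ against 3457, 2272 and 3329 in Tomatoneg libraries. The groups did not overlap, but the gap between the nearest libraries was small beside the spread within Tomatoneg. The log2 fold change of -0.59 ± 0.23 did not pass the test (limma adjusted P = 0.153) and passed once replicates were blocked (limma adjusted P = 0.037). In CD24negTomato+ Efnb1 was 2559, 2445 and 2832 against 3211, 2222 and 3174, which overlapped (-0.12 ± 0.23, limma adjusted P = 0.823).

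Efnb2 (chromosome 8, 8617434 to 8661242, minus strand) was 1129, 586 and 735 in CD24+Tomato+ against 4616, 2021 and 1525 in Tomatoneg libraries. Replicate 1 was the highest in both populations, and no CD24+Tomato+ library reached a Tomatoneg library. Efnb2 changed by -1.62 ± 0.45 on the log2 scale (limma adjusted P = 0.054), and it passed once replicates were blocked (limma adjusted P = 0.0043), with -2.03, -1.78 and -1.05 within replicate numbers 1, 2 and 3. In CD24negTomato+ Efnb2 was 2975, 2801 and 2997, inside the Tomatoneg range of 1472 to 4340 (0.32 ± 0.38, limma adjusted P = 0.701).

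**Figure D2:**
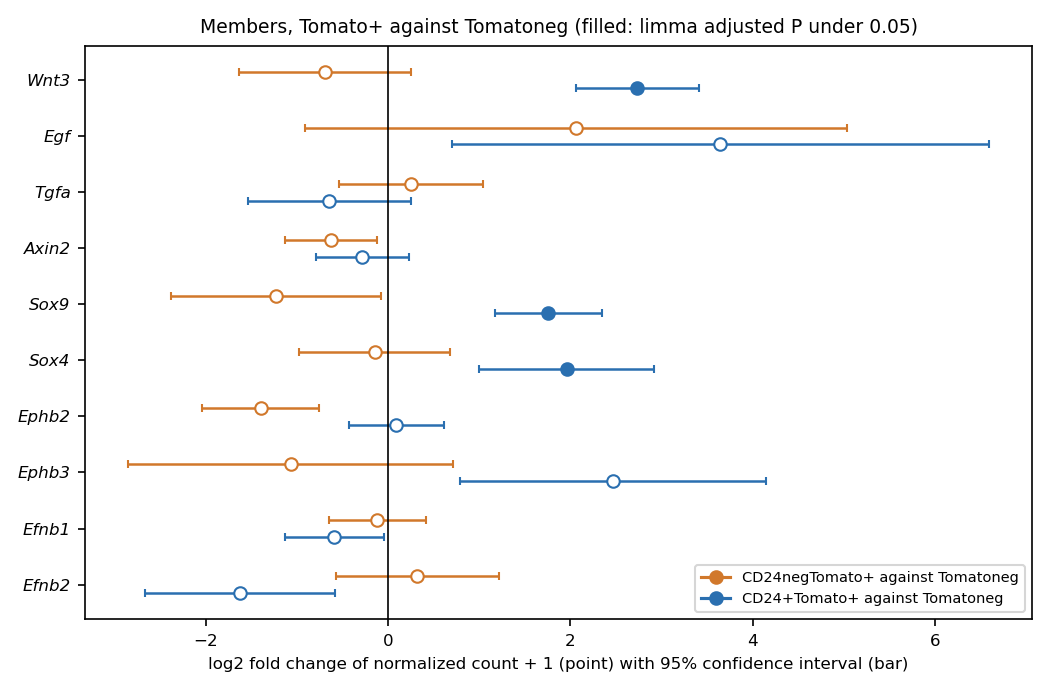
Log2 fold change of each gene in CD24negTomato+ (orange) and CD24+Tomato+ (blue) against Tomatoneg, with 95% confidence intervals from limma on log2(normalized count + 1); filled points had an adjusted P under 0.05. Only Wnt3, Sox9 and Sox4 in CD24+Tomato+ are filled, at 2.74, 1.76 and 1.96.

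In the CD24+Tomato+ table, 3 of 10 genes rose and 0 fell, where 8.02% of the 13874 tested genes rose and 4.89% fell (limma). At an unadjusted P under 0.05 the counts were 5 higher and 2 lower, against 16.3% and 11.5% of all tested genes. With the replicate block 4 of 10 rose and 2 fell, against 10.8% and 9.95% of all tested genes. Groups did not overlap for 5 genes with CD24+Tomato+ the higher, against 21.6% of all tested genes, and for 2 with it the lower, against 14.4%. The median log2 fold change was 0.93 for the 10 genes and 0.16 for all tested genes. In the CD24negTomato+ table, 0 of 10 rose and 0 fell, where 0.999% of the 13420 tested genes rose and 0.32% fell (limma), and at an unadjusted P under 0.05 the counts were 0 higher and 3 lower, against 10.3% and 6.82%. With the block the counts were 0 and 1, against 4.34% and 2.96%. Groups did not overlap for 1 gene with CD24negTomato+ the higher, against 14.7%, and for 4 with it the lower, against 10.6%. The median was -0.38 for the 10 genes and 0.08 for all tested genes. The comparisons share their Tomatoneg libraries, and the difference between their fold changes was not tested. The 10 genes were chosen with earlier results of these data known, so counts set beside these shares are a description and not independent support.

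To set levels of the genes beside each other, mean normalized counts were divided by the length of the longest coding transcript in kilobases. Coding transcripts of a gene can differ in length, from 828 to 10902 bases for Ephb2 and from 410 to 4527 for Tgfa. The levels depend on this choice of length, their order can too, and the SDs do not cover it. On this per-kilobase scale Efnb1 was the most abundant of the 10 in CD24+Tomato+ cells, with a level of 610 ± 71.5 (SD, n = 3), followed by Wnt3 at 409 ± 56.1 and Sox9 at 319 ± 33.1. Axin2 (282 ± 51.4) and Ephb3 (279 ± 42.7) differed by less than either SD. Sox4 (211 ± 93.8), Ephb2 (191 ± 3.94) and Efnb2 (170 ± 58.5) followed, and each neighbouring pair of these differed by less than the larger of its SDs, though by more than that of Ephb2. Tgfa (80.9 ± 25.0) and Egf (20.3 ± 3.64) were the lowest. In Tomatoneg cells of the same table Wnt3 had a per-kilobase level of 61.6 ± 14.01 and ranked close to Ephb3 (67.6 ± 47.2) and Sox4 (51.5 ± 14.4), whose SDs overlap with its own, while Efnb1 (927 ± 200) and Efnb2 (568 ± 346) led. In CD24negTomato+ cells the order was Efnb1 (802 ± 61.1), Efnb2 (610 ± 22.5), Axin2 (211 ± 25.9), Tgfa (139 ± 28.6) and Ephb2 (65.6 ± 14.9). Then came Sox4 (43.4 ± 1.93), Sox9 (42.5 ± 21.2) and Wnt3 (36.5 ± 9.58), where Sox9 differed from each of the other two by less than either SD, above Ephb3 (23.0 ± 3.93) and Egf (5.74 ± 0.862).

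Other genes of the same pathways were taken from lists written by function. Counts in every list below, markers included, stand beside these shares of all tested genes. In CD24+Tomato+ cells 8.02% rose and 4.89% fell, 10.8% and 9.95% with the block, and 16.3% and 11.5% at an unadjusted P under 0.05 (limma). In CD24negTomato+ cells the shares were 0.999% and 0.32%, 4.34% and 2.96%, and 10.3% and 6.82%. Single calls in lists this short are not read as a result about the list. Of 14 further Wnt targets, 14 were tested in CD24+Tomato+ cells and 1 rose, the adhesion receptor Cd44, at 1601, 1364 and 943 against 137, 521 and 385 (log2 fold change 2.07 ± 0.51, limma adjusted P = 0.039). The list median there was a log2 fold change of 0.33 against 0.16 for all tested genes. The stem cell genes Lgr5 and Ascl2 overlapped with Tomatoneg (0.72 ± 0.44 and 0.63 ± 0.63, limma adjusted P = 0.338 and 0.564). In CD24negTomato+ cells 0 of 13 tested genes passed in either direction (limma), 6 were lower at an unadjusted P under 0.05, and the median log2 fold change was -1.43 against 0.08. The 6 were Lgr5, Ascl2, Tnfrsf19, Lef1, Tcf7 and Myc. Stem and lymphocyte markers, listed below, had median log2 fold changes of -2.49 and -2.77 there. The part of cell types in the values of these Wnt targets was not tested. With the replicate block 3 of the 13 were lower there, namely Ascl2 (-4.04 ± 0.95), the growth regulator Myc (-2.06 ± 0.53) and the cyclin gene Ccnd1 (-1.02 ± 0.65, all 3 SEs from the fit without the block), with limma adjusted P of 0.042, 0.014 and 0.031. Ccnd1 had the highest counts of this list. Lgr5 and Ascl2 are also in the stem marker list below, so those lists are not separate, and Ascl2 is counted in both.

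Of 22 other Wnt and R-spondin ligands, only 7 in the CD24+Tomato+ table and 4 in the other passed the filter on low values, and 0 passed the test with or without the block (limma). At an unadjusted P under 0.05 the counts were 3 higher and 0 lower in CD24+Tomato+ cells and 0 and 0 in CD24negTomato+ cells. In the CD24+Tomato+ table Wnt6 had the highest mean count of this list, through Tomatoneg replicate 1: it was 12.3, 8.84 and 6.04 in CD24+Tomato+ against 119.5, 13.97 and 37.4 in Tomatoneg libraries. In the CD24+Tomato+ libraries themselves Wnt9b was higher than Wnt6, at 64.7, 38.6 and 68.0 against 0, 11.1 and 9.01 in Tomatoneg (log2 fold change 3.51 ± 1.13, limma adjusted P = 0.086). Among 26 tested Wnt receptors and transduction genes, Ror2, a receptor of noncanonical Wnt signals, rose in CD24+Tomato+ cells (546, 422 and 352 against 189, 97.0 and 81.9, log2 fold change 1.91 ± 0.44, limma adjusted P = 0.032) and 0 fell. With the block Fzd9 was also higher, and Fzd5 and the scaffold gene Axin1 were lower (limma adjusted P = 0.023, 0.0046 and 0.029). Ctnnb1, which encodes β-catenin and had the highest counts of the list, overlapped with Tomatoneg in CD24+Tomato+ cells (-0.13 ± 0.24, limma adjusted P = 0.769). In CD24negTomato+ cells 0 of 25 passed without the block (limma, 3 higher and 1 lower where P was left unadjusted and under 0.05), and with it the kinase gene Csnk1a1 was higher and Axin1 lower (limma adjusted P = 0.047 and 0.033).

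Of the other EGF family ligands, 5 of 9 listed were tested, and in CD24+Tomato+ cells 2 fell and 0 rose. Areg was 68.6, 44.1 and 62.4 against 472, 241 and 182 (-2.24 ± 0.52, limma adjusted P = 0.033). Hbegf, the other, was 179, 174 and 190 against 605, 621 and 456 (-1.61 ± 0.30, limma adjusted P = 0.017). Of 7 tested receptors, regulators and sheddases, Erbb2 fell (-1.11 ± 0.24, limma adjusted P = 0.025), and with the block Erbb3, with the highest counts of the list, was lower as well (-0.67, limma adjusted P = 0.017). In CD24negTomato+ cells none of the 5 ligands and 7 receptors and regulators passed without the block (limma; unadjusted P under 0.05 for 1 ligand, higher, and for 2 receptors and regulators higher and 1 lower). With the block the ligand gene Btc and the feedback inhibitor Errfi1 were higher there, and the inhibitor Lrig1 was lower (limma adjusted P = 0.027, 0.018 and 0.029).

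Of 7 tested Eph receptors beyond Ephb2 and Ephb3, 2 fell and 0 rose in CD24+Tomato+ cells. Epha1 was 967, 557 and 811 against 4024, 1946 and 2786 (-1.88 ± 0.33, limma adjusted P = 0.015), and Epha2 changed by -1.72 ± 0.35 on the log2 scale (limma adjusted P = 0.023). Ephb4, another EphB receptor gene, overlapped there (0.29 ± 0.38, limma adjusted P = 0.666). In CD24negTomato+ cells 0 of the 7 passed (limma, 1 lower at an unadjusted P under 0.05), and with the block Ephb4 was lower, like Ephb2 (-1.57, limma adjusted P = 0.0096). Of the other ephrins, 0 of 5 tested passed in CD24+Tomato+ and 0 of 4 in CD24negTomato+ cells (limma, 1 lower in each at an unadjusted P under 0.05), and Efna1, with the highest counts, was lower in CD24+Tomato+ with the block (-0.82, limma adjusted P = 0.025). Sox12 was the only gene tested of 4 other SOXC and SOXE factors and passed in neither table (limma adjusted P = 0.15 in CD24+Tomato+, where P was under 0.05 before adjustment, and 0.534 in CD24negTomato+).

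**Figure D3:**
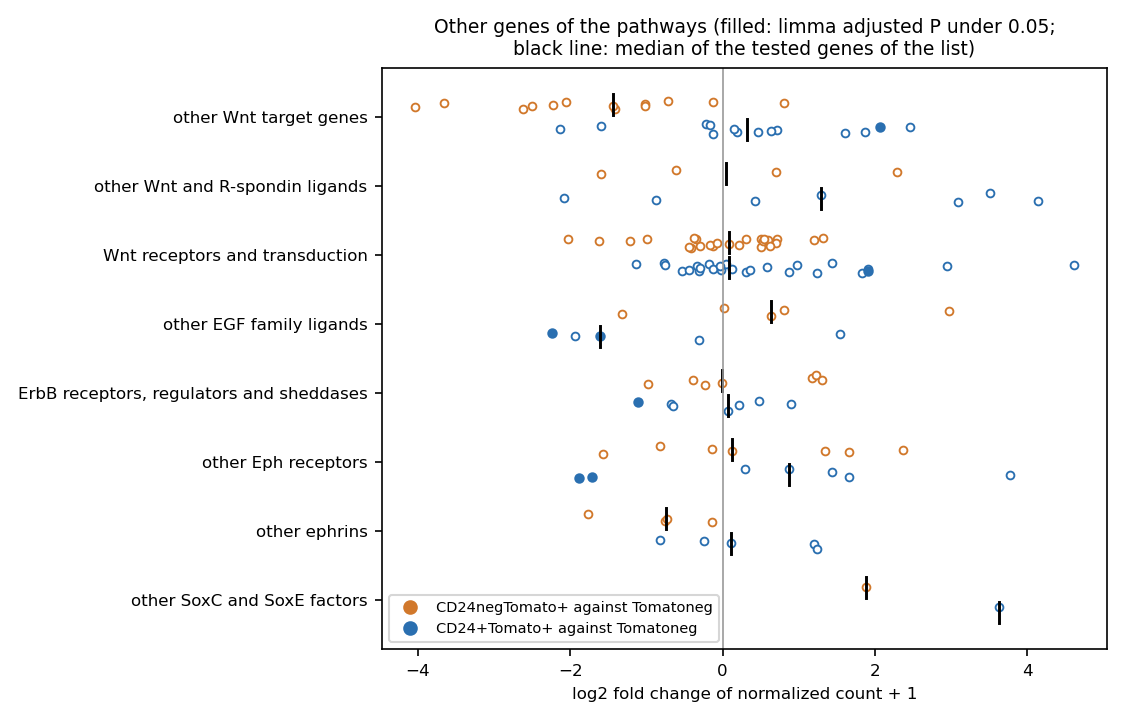
Log2 fold change (x axis, of normalized count + 1) of each tested gene of the 8 pathway lists, with CD24negTomato+ in orange, CD24+Tomato+ in blue, a black line at the list median and filled points for limma adjusted P under 0.05. The filled points are all in CD24+Tomato+, with Cd44 and Ror2 to the right and Areg, Hbegf, Erbb2, Epha1 and Epha2 to the left of 0, and the median of the other Wnt targets in CD24negTomato+ lies at -1.43.

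Markers of crypt and villus cell types were read in the same libraries, and their association with the 10 genes was not computed. All 8 Paneth markers rose in CD24+Tomato+ cells, where their summed normalized count was 492044 to 2125730 against 41165 to 161789 in Tomatoneg, and all 8 tuft markers rose, with sums of 17205 to 20457 against 1858 to 2613. All 8 goblet markers rose in both Tomato+ populations. Of 8 enteroendocrine markers, 8 rose in CD24+Tomato+ and 6 in CD24negTomato+ cells, with median log2 fold changes of 5.25 and 4.25. Of 8 enterocyte markers, 4 fell in CD24+Tomato+ cells, with sums of 24417 to 103702 against 163331 to 674087, and all 8 were lower with the replicate block. In CD24negTomato+ cells the sum of the stem markers was 3861 to 5700 against 10992 to 31845 in Tomatoneg, and 2 of 8 (Olfm4 and Cdca7) fell. Their tuft sum was 410 to 453 against 1634 to 2423, and their Paneth sum 18855 to 48561 against 38051 to 153459. Of 8 cycling markers, 2 (Mcm2 and Mcm5) fell in CD24negTomato+ cells. Of 8 lymphocyte markers 6 fell in CD24+Tomato+ cells and 1 fell in CD24negTomato+ cells. With the replicate block the markers lower in CD24negTomato+ cells were 5 Paneth, 4 stem, 6 tuft, 6 cycling and 5 lymphocyte genes, against 0, 2, 3, 2 and 1 without it. The part of these cell types in the values of the 10 genes was not tested. Within Tomatoneg, replicate 1 had, in the CD24negTomato+ table, an enterocyte sum of 631789 against at most 170319 in the others, and a Paneth sum of 38051, the lowest of the group, in the same library where Ephb3 was lowest and Efnb2 and Tgfa were highest. Replicate 1 also had the lowest Paneth sum of CD24+Tomato+ (492044) and of CD24negTomato+ libraries (18855). Its enterocyte sums of 103702 and 569562 were the highest of those populations.

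**Figure D4:**
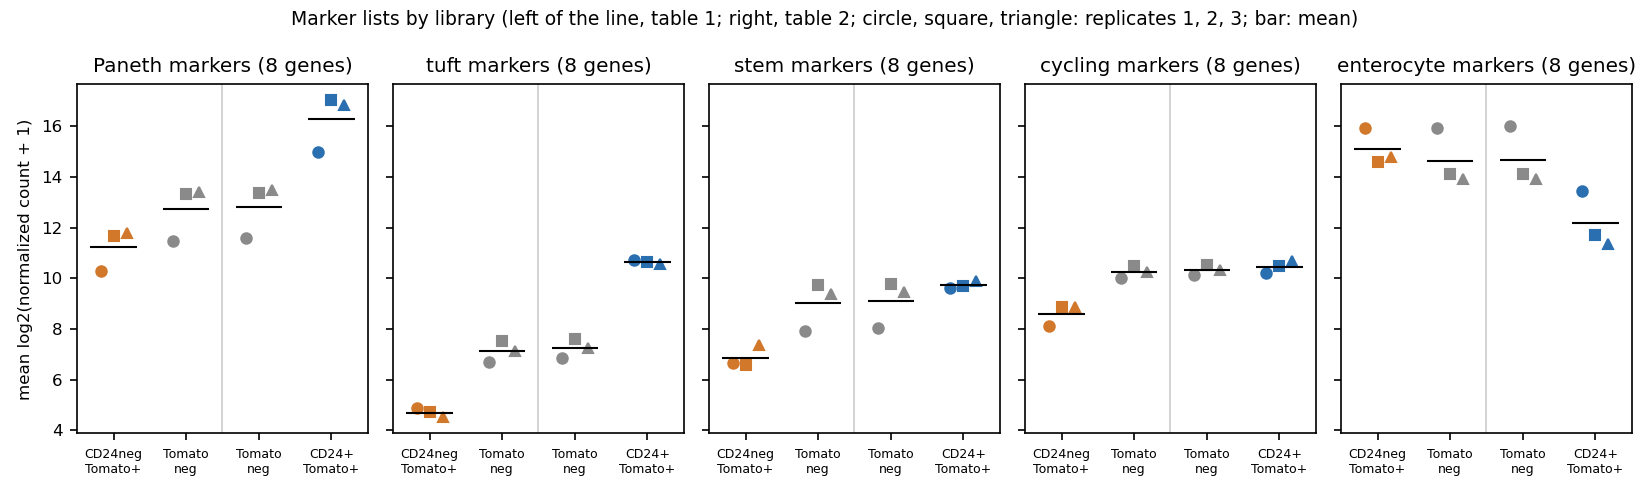
Mean log2(normalized count + 1) over the 8 genes of each of 5 marker lists in every library, by population and table, with symbols for replicate numbers and a bar at the mean. Paneth and tuft markers are highest in CD24+Tomato+, enterocyte markers are lowest there, stem and cycling markers are lowest in CD24negTomato+, and replicate 1 has the highest enterocyte mean of each population.

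The genes whose pattern over the 6 libraries of the CD24+Tomato+ table was most like that of Wnt3 were P4ha1, Bambi and Gprasp2, with a Pearson r of log2 values of 0.999, 0.998 and 0.998. For Sox4 they were Itpr1, Foxa1 and Tmem200b (r = 0.995, 0.995 and 0.994), and for Ephb3 they included Slc39a2 and Cib2 (r = 0.998 and 0.997). Such likeness was common for genes that separate the groups: 802, 808 and 1712 of 13864 genes had an r over 0.9 with Wnt3, Sox4 and Ephb3. Axin2, whose groups overlapped, had 91 such genes, led by Nxpe3, Irs2 and Mroh7 (r = 0.992, 0.985 and 0.979). These are descriptions over libraries that share their population, sequencing numbers and scaling.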

How the data were processed

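Poly-A mRNA of sorted cells was sequenced with Illumina TruSeq chemistry. The submitters' processing notes name bcl2fastq 2.19, kallisto 0.44.0, sleuth, DESeq2 and GRCm38. The deposited values are a signal: kallisto's estimated counts per gene, which the authors normalized with DESeq2 separately in each of 2 tables of 6 libraries. They are not whole counts, and the same Tomatoneg library differs between tables by gene-dependent factors, so tests stay within a table, and depth and the floor of 3 reads are estimates that cover counting error only. All columns were mapped to a sample (0 were not).

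Tests used limma 3.58.1 (lmFit and a trended eBayes, R 4.3.3). Normalized counts were put on the scale log2(count + 1), which understates changes of low genes, and a gene entered when it averaged 10 or more. P values were two-sided, adjusted by Benjamini-Hochberg over all tested genes, with a threshold of 0.05. The fit was checked on simulated data. Python 3.11.15 made the tables (numpy 2.4.6, pandas 2.3.3) and figures (matplotlib 3.10.9), and positions are from GENCODE M21. Replicate numbers come from the sample labels, which do not say whether same-numbered libraries share mice. Deviations of same-numbered libraries from their group means correlated at 0.302, 0.291 and 0.342 in the CD24negTomato+ table and 0.283, 0.180 and 0.375 in the other. Different-numbered libraries correlated at -0.231 to -0.0631 and at -0.364 to -0.0297. Deviations within a group sum to 0, so these correlations are not independent of each other. The same-numbered values were all above 0.1, so the numbers were taken to pair libraries. Blocking on that number was an alternative fit, and the main fit does not use it.

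Alternatives were pseudocounts of 0.1 and 10, a minimum mean of 1 or no filter, equal library totals, quantile normalization, the replicate block, a log2 fold change of at least 1, and each library left out. The genes named are the 10 genes, those past the threshold and the most abundant in each pathway list, Foxo1, and the 3 genes most like each of Wnt3, Axin2, Sox4 and Ephb3, of which 1 is not reported here. The 10 genes, the lists and the motifs were chosen with earlier results of these data known. Pathway genes named for a call with the block or for an unadjusted P, Lgr5 and Wnt9b were chosen after their values were seen.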

Additional observations from a re-analysis of the deposited data

Results flagged for a closer look

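Wnt3 and Sox9 had fold changes of opposite sign in the sorted Tomato+ populations, of which those in CD24+Tomato+ cells passed the test and those in CD24negTomato+ cells did not (limma adjusted P = 0.424 and 0.266). For Wnt3 the log2 fold change against Tomatoneg was -0.69 in CD24negTomato+ and 2.74 in CD24+Tomato+ cells, and for Sox9 it was -1.23 and 1.76. Each was flagged because every CD24negTomato+ library was below, and every CD24+Tomato+ library above, every Tomatoneg library of its table. The comparisons share those Tomatoneg libraries and their tables were scaled separately, and the difference between the fold changes was not tested.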

How the results depend on the processing

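In the CD24negTomato+ table the count of the 10 genes that were lower went from 0 to 1, Ephb2, with a pseudocount of 10, with library totals equalised, with quantile normalization and with the replicate block, and ranged from 0 to 2 with 1 library left out, the 2 (Ephb2 and Ephb3) coming without Tomatoneg replicate 1. In the CD24+Tomato+ table the count that were higher went from 3 to 5 with a pseudocount of 10 and ranged from 1 (Wnt3, without CD24+Tomato+ replicate 2) to 5 (without Tomatoneg replicate 1) with 1 library left out, and it was 4 with the replicate block. The count that were lower there went from 0 to 1, Efnb2, with a pseudocount of 10 and with quantile normalization, to 2 with the replicate block, and ranged from 0 to 1 with 1 library left out (Efnb2, without Tomatoneg replicate 3). The sign changed for 3 fold changes, none past the threshold, when 1 library was left out: Sox4 in CD24negTomato+ was 0.090 without Tomatoneg replicate 2 (range from -0.29), Efnb2 in CD24negTomato+ was -0.011 without Tomatoneg replicate 3 (range to 0.77), and Ephb2 in CD24+Tomato+ was -0.092 without Tomatoneg replicate 2 (range to 0.21). Of all single-gene values under the alternatives, 254 kept sign and side of the threshold, 18 newly passed and 5 no longer passed. Over all tested genes the counts higher and lower were 134 and 43 in CD24negTomato+, and 582 and 397 there with the replicate block. They were 314 and 101 with a pseudocount of 10, 98 and 60 with equal totals, and 304 and 190 with quantile normalization. Leaving out Tomatoneg replicate 1 gave 617 and 442. Without CD24negTomato+ replicates 1, 2 and 3 the counts were 18 and 2, 17 and 1, and 41 and 4. In CD24+Tomato+ the counts were 1113 and 678, 1504 and 1381 with the block, 1456 and 781 with a pseudocount of 10, and 991 and 1036 with quantile normalization. They were 127 and 41 without CD24+Tomato+ replicate 2, 1620 and 858 without Tomatoneg replicate 1, and 966 and 477 without Tomatoneg replicate 3. Counts over all tested genes thus also rose with a pseudocount of 10, with the block and without Tomatoneg replicate 1. The median log2 fold change of all tested genes moved from 0.08 to -0.12 in CD24negTomato+ with equal totals and to -0.05 with quantile normalization, and from 0.16 to -0.02 in CD24+Tomato+ with quantile normalization, and no sign of the 10 genes changed under either scaling. The causes of these changes were not tested. Egf was 0 in Tomatoneg replicate 1, and the cause of that value was not tested either.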
